A study of Mus musculus with 24 samples.

Results

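Microglia of mice given WD-Exos after bilateral carotid artery stenosis (BCAS) were compared with microglia of BCAS mice given PBS, over all genes with values. The libraries were chosen by their names: 6 libraries of the WD-Exos group and 6 of the BCAS group, together 12 of the 24 in the series. WD-Exos are exosomes, small vesicles released by cells, and by the series title they came from foam cells, which are macrophages loaded with lipid. All mice of both groups were wild type and all had the BCAS operation, which narrows both common carotid arteries and lowers blood flow to the brain. WD-Exos were given at 100 µg by tail vein injection, repeated at intervals of 3 days, and both groups were sampled at 28 days. The other 12 libraries, Sham mice given PBS and BCAS mice given ND-Exos, entered the fit to estimate the spread and are named below only beside a result. The labels do not spell out ND and WD. They do not give the age of the mice and do not say that the 6 libraries of a group came from separate mice, so each p-value is set by library-to-library spread, part of which may be technical.

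Microglia are the resident macrophages of the brain. They take up debris, lipids and vesicles, break them down in lysosomes, and sense injury through cytokine, purine and lipid receptors. Nuclear genes encode most subunits of the mitochondrial respiratory chain, complexes I to IV, which passes electrons to oxygen and pumps protons, and of ATP synthase, which uses that gradient to make ATP. Peroxide formed on the way is removed by peroxiredoxins and glutathione peroxidases.

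Both groups had a similar depth. Library totals were 26427000 to 27520000 counts with WD-Exos and 24278000 to 28892000 in BCAS (exact two-sided permutation test, p = 0.344). Genes with a count in a library numbered 9773 ± 581 with WD-Exos and 9202 ± 562 in BCAS (SD, n = 6; exact two-sided permutation test, p = 0.108, and 0.216 adjusted over both measures). Smart-seq2 amplifies the RNA of few cells, and 45.7% of tested genes were at 0 in 1 or more of the 12 libraries. Levels below are CPM, counts relative to the library total after TMM scaling, and folds are log2 fold changes of WD-Exos over BCAS, so that a negative value is a lower level with WD-Exos. In such bulk samples fewer cells expressing a gene and less of its RNA per cell cannot be told apart.

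Microglia markers were by far the most abundant marker list in both groups. The 12 microglia markers summed to 64600.0 to 88700.0 CPM with WD-Exos and 61800.0 to 85900.0 CPM in BCAS, and the lowest sum was that of BCAS library 2. That library stood apart from the other BCAS libraries. It had the lowest level of Csf1r, the receptor for the survival factor of microglia, at 3286 CPM, the lowest Tmem119 at 625 CPM, and the highest mean level of immediate early transcription factors. Other cell types left small traces, which the plot of marker sums shows. The 12 oligodendrocyte markers summed to 212 to 6360.0 CPM with WD-Exos and 131 to 1380.0 CPM in BCAS, with medians of 343 and 288 CPM, and the highest sum was that of WD-Exos library 6. Markers of border macrophages, which line brain vessels and meninges, summed to 21 to 185 CPM with WD-Exos and 15.6 to 556 CPM in BCAS, with medians of 137 and 258 CPM. Clec10a was at 0 in all 12 libraries, and 6 of the 9 tested border macrophage markers were lower with WD-Exos. Endothelial markers summed to 617 to 764 CPM with WD-Exos and 469 to 717 CPM in BCAS, with Vwf at 0 in all 12. Most of this sum was 1 gene, Bsg, at 573 to 740 CPM with WD-Exos and 435 to 654 CPM in BCAS, while Cdh5 and Cldn5, which define endothelium, reached at most 3.49 and 10.9 CPM. Astrocyte markers summed to 124 to 426 CPM with WD-Exos and 54 to 267 CPM in BCAS. Of these, Slc1a3 was at 85.2 to 215.3 CPM with WD-Exos and 52.1 to 217 CPM in BCAS. Mural cell markers summed to at most 20 CPM, and hemoglobin and other erythroid genes to at most 12.1 CPM.

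**Figure D1:**
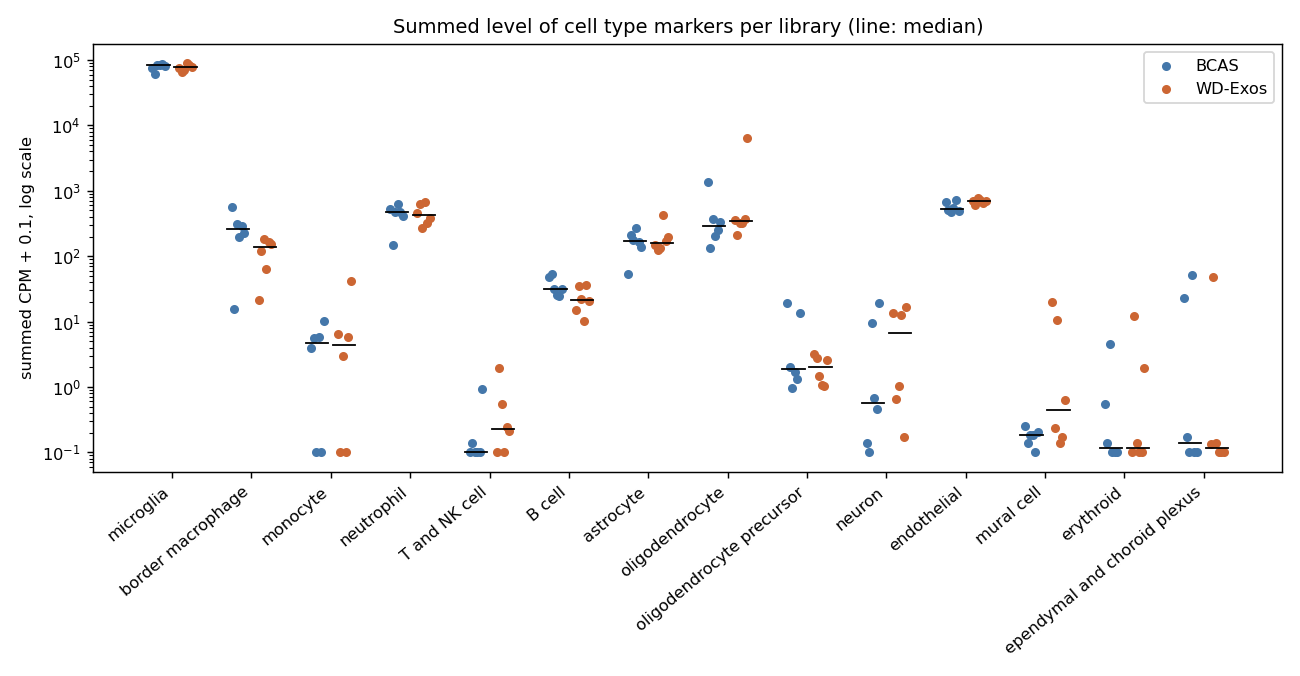
Summed CPM plus 0.1 of the marker genes of 14 cell types (y axis, log scale) in each BCAS and WD-Exos library, with a line at each group's median. Microglia markers are highest in all 12 libraries, and WD-Exos library 6 has the highest oligodendrocyte sum, 6360 CPM.

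No gene passed the test between WD-Exos and BCAS. Of 15878 genes with values, 10219 passed the filter on low counts, and 0 of them (0.0%) had an adjusted p under 0.05 in edgeR's quasi-likelihood test, the smallest being 0.816. At an unadjusted p under 0.05 there were 379 genes (3.71%), of which 221 (2.16%) were higher with WD-Exos and 158 (1.55%) lower. Among the 2675 genes with a mean of at least 50 CPM there were 124 such genes (4.64%), 43 higher (1.61%) and 81 lower (3.03%). This order did not hold when that level was set as the filter before the fit, which gave 59 higher and 60 lower. Every WD-Exos library lay above every BCAS library for 12 genes (0.117%) and below for 7 genes (0.0685%). Over all tested genes 51.1% of folds were below 0, and over genes of at least 50 CPM 55.9%, which leaves 44.1% above 0. These shares are the background for the counts of gene lists below.

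DESeq2 on the same counts placed 120 genes past an adjusted p of 0.05, 94 higher and 26 lower, and 113 of the 120 (94.2%) were at 0 in 1 or more of the 12 libraries. Only 2 of them, Prdx2 and Commd10, had a mean of at least 50 CPM. limma voom with library weights placed 1 gene past it, Pan2. The interval of a fold shows what these libraries could resolve. For the genes of at least 50 CPM the 95% interval reached, at the median, 0.643 to either side on the log2 scale, and for 1645 of them (61.5%) the whole interval lay between -1 and 1.

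**Figure D2:**
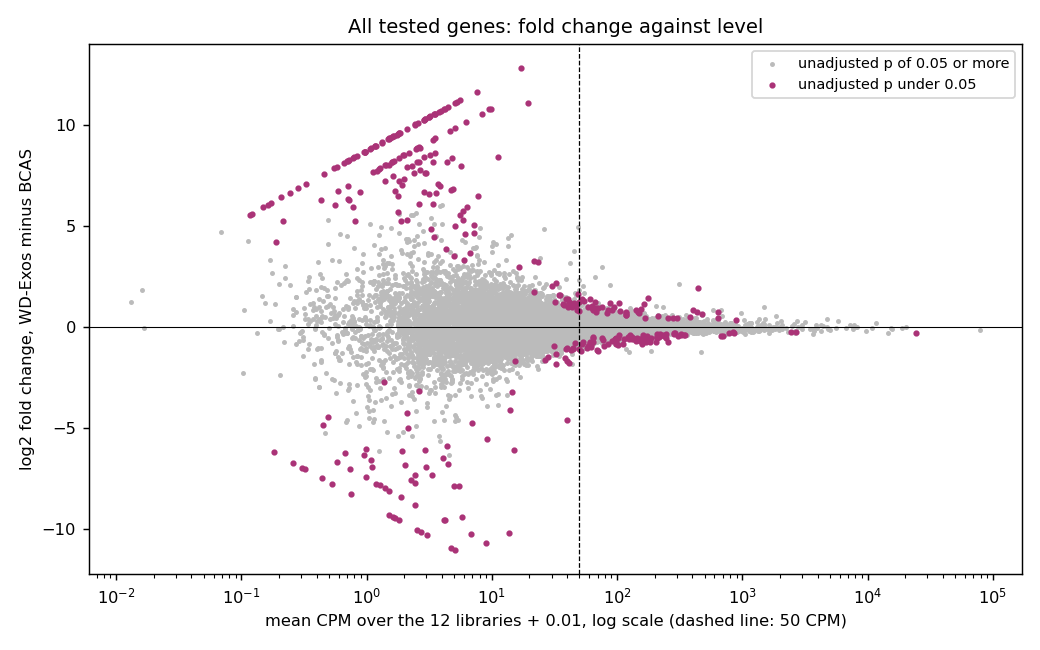
Log2 fold change of WD-Exos over BCAS (y axis) against mean CPM over the 12 libraries plus 0.01 (x axis, log scale) for the 10219 tested genes. Genes with an unadjusted p under 0.05 are coloured; folds beyond 5 in either direction belong to genes under 50 CPM (dashed line), and for a gene at 0 in a whole group the plotted fold depends on the prior count of the fit.

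Prdx2 (Entrez gene 21672), which encodes peroxiredoxin 2, a thiol enzyme that reduces hydrogen peroxide in the cytosol, was one of 2 genes of at least 50 CPM (0.0748%) with every WD-Exos library below every BCAS library. Its level was 88.6 to 132 CPM with a median of 103 in WD-Exos libraries, and 150.2 to 239.8 CPM with a median of 164 in BCAS libraries. The groups did not overlap, and the mean was 109 ± 16.2 CPM with WD-Exos and 177 ± 35.3 CPM in BCAS (SD, n = 6). The fold was -0.70 ± 0.20 (SE), adjusted p = 0.816 in edgeR's quasi-likelihood test, with a 95% interval of -1.11 to -0.29, and DESeq2 gave -0.69 with an adjusted p of 0.0414. Leaving out any 1 library moved the fold from -0.75 without WD-Exos library 6 to -0.58 without BCAS library 3. Prdx2 averaged 169 CPM in Sham and 175 CPM with ND-Exos. The fold of WD-Exos over ND-Exos in the same fit was -0.69 ± 0.20 (SE) and did not pass either, at an adjusted p of 0.390; in that comparison 2 of 10219 genes (0.0196%) passed. Prdx2 is abundant in red blood cells. The erythroid markers summed to 0 to 12.1 CPM with WD-Exos and 0 to 4.38 CPM in BCAS. Within BCAS, library 3 was highest both for them and for Prdx2. The highest erythroid sum of the 12 libraries was in WD-Exos library 2, where Prdx2 was at 101 CPM. The part of erythroid RNA in the fold was not tested.

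Gpx1, the cytosolic glutathione peroxidase, was also lower, at 575 to 824 CPM with a median of 689.9 in WD-Exos libraries, and 718 to 958 CPM with a median of 878 in BCAS libraries. Its groups overlapped, with WD-Exos libraries 3, 4 and 5 above BCAS library 3, and the fold was -0.31 ± 0.12 (SE), adjusted p = 0.864. The list of 24 peroxide and superoxide detoxifying enzymes as a whole did not lean to one side: 11 were higher and 13 lower, with a median of -0.036 against -0.016 over all tested genes. Of these 24, 3 had an unadjusted p under 0.05, which is 12.5% against 3.71% of all tested genes. The third was Srxn1, the sulfiredoxin that repairs overoxidised peroxiredoxins. Among the 12 libraries it had counts only in WD-Exos libraries 2 and 6, at 8.96 and 26 CPM, and 0 in the other 10. Srxn1 averaged 4.08 CPM with ND-Exos and 4.67 CPM in Sham, beside 5.83 CPM with WD-Exos. Nfe2l2, the transcription factor that drives antioxidant genes, was at 221 to 319 CPM with a median of 262 in WD-Exos libraries, and 205 to 404 CPM with a median of 219.7 in BCAS libraries, a fold of 0.059 ± 0.19 (SE) with an interval of -0.33 to 0.45. Its 18 tested targets were split evenly, 9 higher and 9 lower. Hmox1, the heme-degrading target, had a fold of 0.15 ± 0.35 (SE) and an interval of -0.57 to 0.87. The 7 subunits of the phagocyte NADPH oxidase, which makes superoxide, had folds between -0.26 and 0.11.

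Most respiratory genes had a level slightly lower with WD-Exos, and fewer of them did without the libraries of replicate 2. Of 77 tested subunits of complexes I to IV, cytochrome c and ATP synthase, 57 (74.0%) had a fold below 0, against 55.9% of all genes of at least 50 CPM, and the median fold was -0.14 against -0.041. With replicate 2 left out of both groups 44 of 77 (57.1%) were lower with a median of -0.057, and without BCAS library 2 alone 50 (64.9%). None passed the adjusted test. At an unadjusted p under 0.05 there were 5 (6.49%), 4 of them lower, against 4.64% of genes of at least 50 CPM and 3.71% of all tested genes. Complex I, which oxidises NADH, had 27 of 36 lower with a median of -0.15. Complex III, which reduces cytochrome c, had 8 of 9 lower with a median of -0.22. Complex IV with cytochrome c had 9 of 13 lower with a median of -0.21, and ATP synthase 11 of 15 with a median of -0.094. Complex II, which also belongs to the tricarboxylic acid cycle, had 2 higher and 2 lower. With any 1 library left out the median of complex III ran from -0.26 without WD-Exos library 6 to -0.15 without BCAS library 2, that of complex I from -0.19 without BCAS library 6 to -0.090 without WD-Exos library 2, that of complex IV with cytochrome c from -0.31 without WD-Exos library 6 to -0.12 without BCAS library 5, and that of ATP synthase from -0.15 without WD-Exos library 6 to -0.018 without BCAS library 2. With replicate 2 left out of both groups ATP synthase turned to 0.029.

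Cox6b1 (Entrez gene 110323), a subunit that links the monomers of complex IV, was at 214 to 358 CPM with a median of 283 in WD-Exos libraries, and 319 to 445 CPM with a median of 368 in BCAS libraries. WD-Exos library 6 reached into the range of BCAS and the other 5 lay below all BCAS libraries. Its fold was -0.43 ± 0.14 (SE), adjusted p = 0.816. Cycs (Entrez gene 13063), cytochrome c, which carries electrons from complex III to complex IV, was at 78.9 to 161 CPM with a median of 111 in WD-Exos libraries, and 135 to 228 CPM with a median of 158 in BCAS libraries. Only WD-Exos library 4 was above the lowest BCAS library, and the fold was -0.63 ± 0.23 (SE), adjusted p = 0.816. Ndufb3 and Ndufa7, accessory subunits of complex I, had folds of -0.52 ± 0.23 (SE) and -0.42 ± 0.19 (SE). Atp5b, the catalytic beta subunit of ATP synthase, had a positive fold, 0.33 ± 0.17 (SE), so the subunits of a complex did not all lie on one side.

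The promoters of these lower genes are shown because respiratory genes share known promoter elements. The 250 bases upstream of the annotated start are from RefSeq, assembly GRCm38.p6, and are printed 5′ to 3′ with motif matches in capitals. Prdx2 lies on the plus strand at chr8:84969372-84969621, Cox6b1 on the minus strand at chr7:30626115-30626364 and Cycs on the minus strand at chr6:50566570-50566819.
Prdx2: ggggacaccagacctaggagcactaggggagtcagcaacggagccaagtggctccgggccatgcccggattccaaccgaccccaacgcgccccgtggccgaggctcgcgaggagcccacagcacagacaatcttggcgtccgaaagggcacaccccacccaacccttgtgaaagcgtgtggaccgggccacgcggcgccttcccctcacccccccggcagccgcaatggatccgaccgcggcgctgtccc
Cox6b1: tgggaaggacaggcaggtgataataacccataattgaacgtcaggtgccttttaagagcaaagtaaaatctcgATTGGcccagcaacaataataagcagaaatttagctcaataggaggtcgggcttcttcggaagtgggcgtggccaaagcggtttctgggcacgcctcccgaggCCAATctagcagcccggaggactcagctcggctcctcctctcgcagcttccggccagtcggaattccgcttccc
Cycs: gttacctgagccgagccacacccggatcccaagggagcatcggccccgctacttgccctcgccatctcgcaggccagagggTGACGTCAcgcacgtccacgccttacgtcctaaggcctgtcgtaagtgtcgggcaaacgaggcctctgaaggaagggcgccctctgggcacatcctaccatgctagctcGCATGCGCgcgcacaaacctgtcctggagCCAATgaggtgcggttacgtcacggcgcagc
The motifs searched on both strands were the core of the NRF1 site (GCATGCGC), the cyclic AMP response element (TGACGTCA), the core of the antioxidant response element (TGANNNNGC) and the CCAAT box (CCAAT). The first was shortened and the second added after the windows had been seen. In the Cycs window the NRF1 core begins 60 bases before the start, the cyclic AMP response element 169 bases and a CCAAT box 31 bases before it. The Cox6b1 window holds a CCAAT box on the minus strand at 177 and one on the plus strand at 74 bases before the start, and the Prdx2 window holds no match to these letters. The NRF1 core was in the windows of 9 of 65 respiratory genes with a window (13.8%), against 5.42% of 8343 tested genes and 2.56% of all 27025 genes with a window. The cyclic AMP response element was in 5 of the 65 (7.69%), against 3.15% of tested genes and 1.77% of all genes with a window. The antioxidant element core was in 36.9% of the 65 and 41.4% of tested genes, and the CCAAT box in 41.5% and 41.1%, so these were about as frequent as elsewhere. A match is a description of letters and was not tied to any fold.

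**Figure D3:**
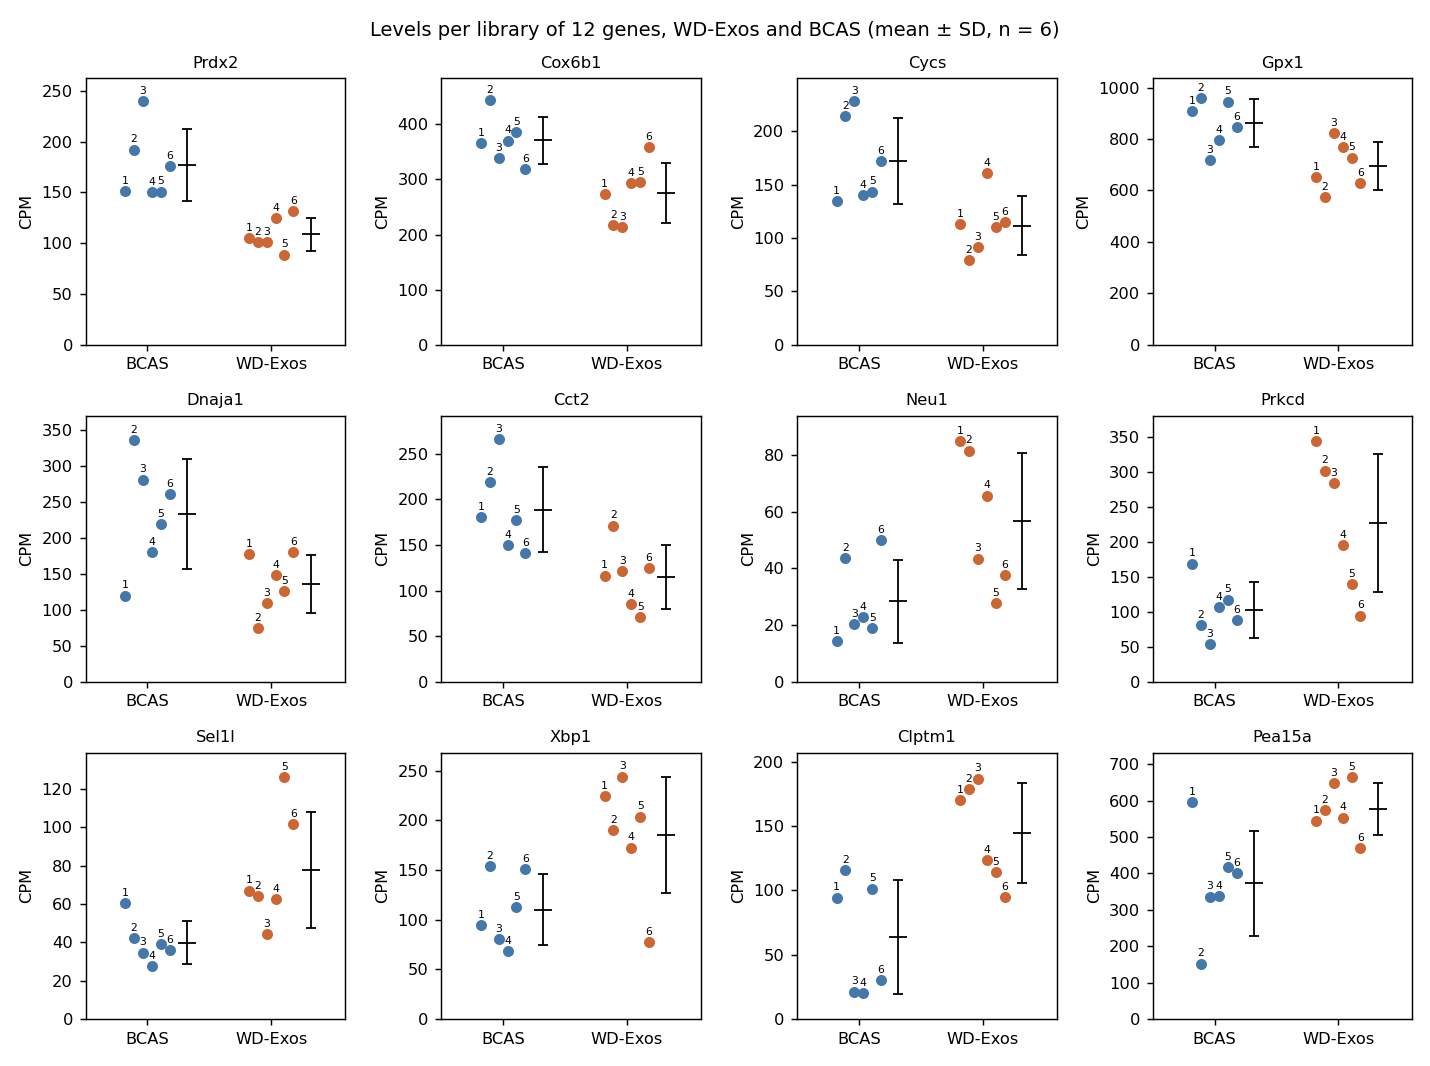
CPM (y axis, from 0) of 12 genes in each BCAS and WD-Exos library, numbered by replicate, with mean ± SD of 6 beside the points. For Prdx2 no WD-Exos point reaches the lowest BCAS point; the other 11 genes overlap between the groups.

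Of 19 glycolytic genes 12 were higher, with a median of 0.13 that ran from 0.067 without BCAS library 2 to 0.21 without BCAS library 6, against -0.016 over all tested genes. None of them passed the adjusted test, and Gapdh had a fold of 0.20 ± 0.15 (SE). The tricarboxylic acid cycle had 9 of 20 higher with a median of -0.012; its leading member Pdhb, of the pyruvate dehydrogenase complex, had a fold of -0.54 ± 0.26 (SE). Fatty acid oxidation had 8 of 18 higher with a median of -0.065, and the pentose phosphate pathway, which makes NADPH, 4 of 6 with a median of 0.12. Naxd, which repairs hydrated NADPH, was among the 10 leading higher genes, at 62.3 to 167 CPM with a median of 83.1 in WD-Exos libraries, and 29.9 to 100.3 CPM with a median of 38 in BCAS libraries. Naxd averaged 89.6 CPM with ND-Exos and 95.5 CPM in Sham, beside 93.2 CPM with WD-Exos. WD-Exos library 6, which also had the highest oligodendrocyte marker sum, held the highest value, and without it the fold of 0.93 was 0.69; the part of oligodendrocyte RNA in it was not tested.

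Lipid genes did not separate the groups. Of 49 tested genes of lipid uptake and storage, cholesterol efflux and cholesterol synthesis, 31 (63.3%) had a fold above 0 against 48.9% of all tested genes, with a median of 0.084. At an unadjusted p under 0.05 there was 1 gene (2.04%), against 3.71% of all tested genes. That gene was Cyp46a1, a cholesterol 24-hydroxylase, with at most 20.4 CPM in any of the 12 libraries. Without WD-Exos library 6, 24 of 50 lipid genes were above 0, with a median of -0.037. Plin2, which coats lipid droplets, was at 27.2 to 90.2 CPM with a median of 46.3 in WD-Exos libraries, and 16.3 to 149.7 CPM with a median of 72.1 in BCAS libraries, and the interval of its fold was -1.46 to 0.39. Abca1, the cholesterol exporter, had a fold of 0.015 ± 0.31 (SE) and an interval of -0.61 to 0.64. Lpl, lipoprotein lipase, had a fold of 0.56 ± 0.37 (SE), Acsl1, which activates fatty acids, 1.003 ± 0.75 (SE), and Soat1, which esterifies cholesterol, 0.51 ± 0.38 (SE).

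Most genes of protein synthesis and folding also had a fold below 0. Of 82 cytosolic ribosomal protein genes 68 (82.9%) were lower, with a median of -0.099. Rps27 was at 586 to 909 CPM with a median of 792 in WD-Exos libraries, and 782 to 1158 CPM with a median of 929.6 in BCAS libraries, a fold of -0.30 ± 0.13 (SE). Without BCAS library 2 the median of this list was 0.023, with 34 of 82 lower, so its direction rested on that library; the lowest median over single libraries left out was -0.16. With replicate 2 left out of both groups 27 of 82 were lower. Many ribosomal protein genes have near-identical processed copies, and how reads were shared among them is not given in the sources used here. Of 77 mitochondrial ribosomal protein genes 57 (74.0%) were lower, with a median of -0.24, which ran from -0.30 without BCAS library 6 to -0.12 without BCAS library 2. Only 11 of these 77 averaged at least 50 CPM, with a median of -0.33, while all cytosolic ribosomal genes and proteasome subunits did. Of 36 proteasome subunits 28 (77.8%) were lower, with a median of -0.10 that ran from -0.26 without WD-Exos library 6 to -0.046 without WD-Exos library 2. With replicate 2 left out of both groups 49 of the 77 mitochondrial ribosomal genes (63.6%) and 21 of the 36 proteasome subunits (58.3%) were lower. In these 3 lists only 3 genes had an unadjusted p under 0.05, Rps27, Rpl36 and Mrpl11. The shares were 2.44% of cytosolic and 1.3% of mitochondrial ribosomal genes and 0.0% of proteasome subunits, against 3.71% of all tested genes.

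Of 20 heat shock proteins and chaperones 16 (80.0%) were lower, with a median of -0.23, and 12 of 20 with replicate 2 left out of both groups. Dnaja1, a co-chaperone of Hsp70, was at 75 to 179.9 CPM with a median of 137 in WD-Exos libraries, and 120.0 to 336 CPM with a median of 240.2 in BCAS libraries. BCAS library 1 was its only BCAS library within the range of WD-Exos, and its fold was -0.78 ± 0.26 (SE), adjusted p = 0.816. Cct2, a subunit of the chaperonin that folds actin and tubulin, was at 71.3 to 171 CPM with a median of 119 in WD-Exos libraries, and 142 to 266 CPM with a median of 179 in BCAS libraries, a fold of -0.72 ± 0.26 (SE), adjusted p = 0.816. Hypk, a chaperone-like partner of the amino-terminal acetylation machinery, was the other gene of at least 50 CPM with every WD-Exos library below every BCAS library, at 35.9 to 53.2 CPM with a median of 49.4 in WD-Exos libraries, and 54.5 to 93.2 CPM with a median of 57.6 in BCAS libraries. Its gap was narrow, its fold was -0.41 ± 0.25 (SE), and its unadjusted p was 0.113. It was chosen after its values were seen.

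The list of 18 endoplasmic reticulum (ER) and integrated stress genes was even, 9 higher and 9 lower, with a median of 0.002. Sel1l, the adaptor of a ubiquitin ligase that clears misfolded ER proteins, was at 44.3 to 126 CPM with a median of 65.5 in WD-Exos libraries, and 27.4 to 60.2 CPM with a median of 37.3 in BCAS libraries, with a fold of 0.96 ± 0.31 (SE), adjusted p = 0.816. Xbp1, the transcription factor of the unfolded protein response, was at 77.3 to 244 CPM with a median of 197 in WD-Exos libraries, and 68 to 154 CPM with a median of 104 in BCAS libraries. WD-Exos library 6 was low for Xbp1 and the other 5 exceeded all BCAS libraries; the fold was 0.75 ± 0.31 (SE), adjusted p = 0.975. Dnajb9, a chaperone of the ER, had a fold of -0.80 ± 0.45 (SE), and its highest value, 230.1 CPM, was in BCAS library 2. Outside this list, Clptm1, an ER membrane protein, was at 94.6 to 187 CPM with a median of 147 in WD-Exos libraries, and 20.0 to 116 CPM with a median of 62.3 in BCAS libraries, a fold of 1.18 ± 0.41 (SE), adjusted p = 0.816. Emc10, a subunit of the complex that inserts membrane proteins, had a fold of 1.23 ± 0.45 (SE). Means with ND-Exos and in Sham were 80.1 and 87.5 CPM for Sel1l, beside 77.6 CPM with WD-Exos. They were 151 and 131 CPM for Xbp1, 43.4 and 94.6 CPM for Clptm1, and 26.7 and 96.7 CPM for Emc10.

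Lysosomal genes lay on both sides. The 31 lysosomal hydrolases and membrane proteins had 18 higher and 13 lower with a median of 0.024, and the 15 subunits of the vacuolar proton pump, which acidifies the lysosome, 6 and 9 with a median of -0.018. Neu1, the lysosomal sialidase, was at 27.7 to 84.9 CPM with a median of 54.5 in WD-Exos libraries, and 14.3 to 49.9 CPM with a median of 21.6 in BCAS libraries, with a fold of 1.004 ± 0.43 (SE), adjusted p = 1.0. Ctss, the cathepsin that trims the MHC class II invariant chain, was at 15372 to 25107 CPM with a median of 23267 in WD-Exos libraries, and 24343 to 29453 CPM with a median of 27638 in BCAS libraries, a fold of -0.30 ± 0.13 (SE), adjusted p = 1.0.

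Autophagy genes showed single members on both sides. Ulk2, a kinase that starts autophagy, was at 15.7 to 59.9 CPM with a median of 47.2 in WD-Exos libraries, and 34.7 to 235 CPM with a median of 74.5 in BCAS libraries. BCAS library 6 held the highest value, and without it the fold of -1.14 was -0.64. Wipi1, which binds the growing autophagosome membrane, was detected in all 6 WD-Exos libraries, at 0.037 to 14.5 CPM, and had no count in any BCAS library. It is sparse, and it averaged 5.2 CPM in Sham. Of 31 autophagy and mitophagy genes 17 were higher and 14 lower, with a median of 0.082. At an unadjusted p under 0.05 there were 4 (12.9%), against 3.71% of all tested genes. Of these, 3 were lower and 1, Wipi1, was higher. Bnip3, a mitophagy receptor induced by low oxygen, had a fold of -0.67 ± 0.31 (SE). Of 20 complement components and phagocytic receptors 14 (70.0%) were lower, with a median of -0.12, which was 0.046 in the fit adjusted for genes detected per library. Fcer1g, the signalling chain of Fc receptors, was at 1724 to 3065 CPM with a median of 2488 in WD-Exos libraries, and 2740.0 to 3410.5 CPM with a median of 2831 in BCAS libraries, a fold of -0.28 ± 0.13 (SE), adjusted p = 1.0.

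**Figure D4:**
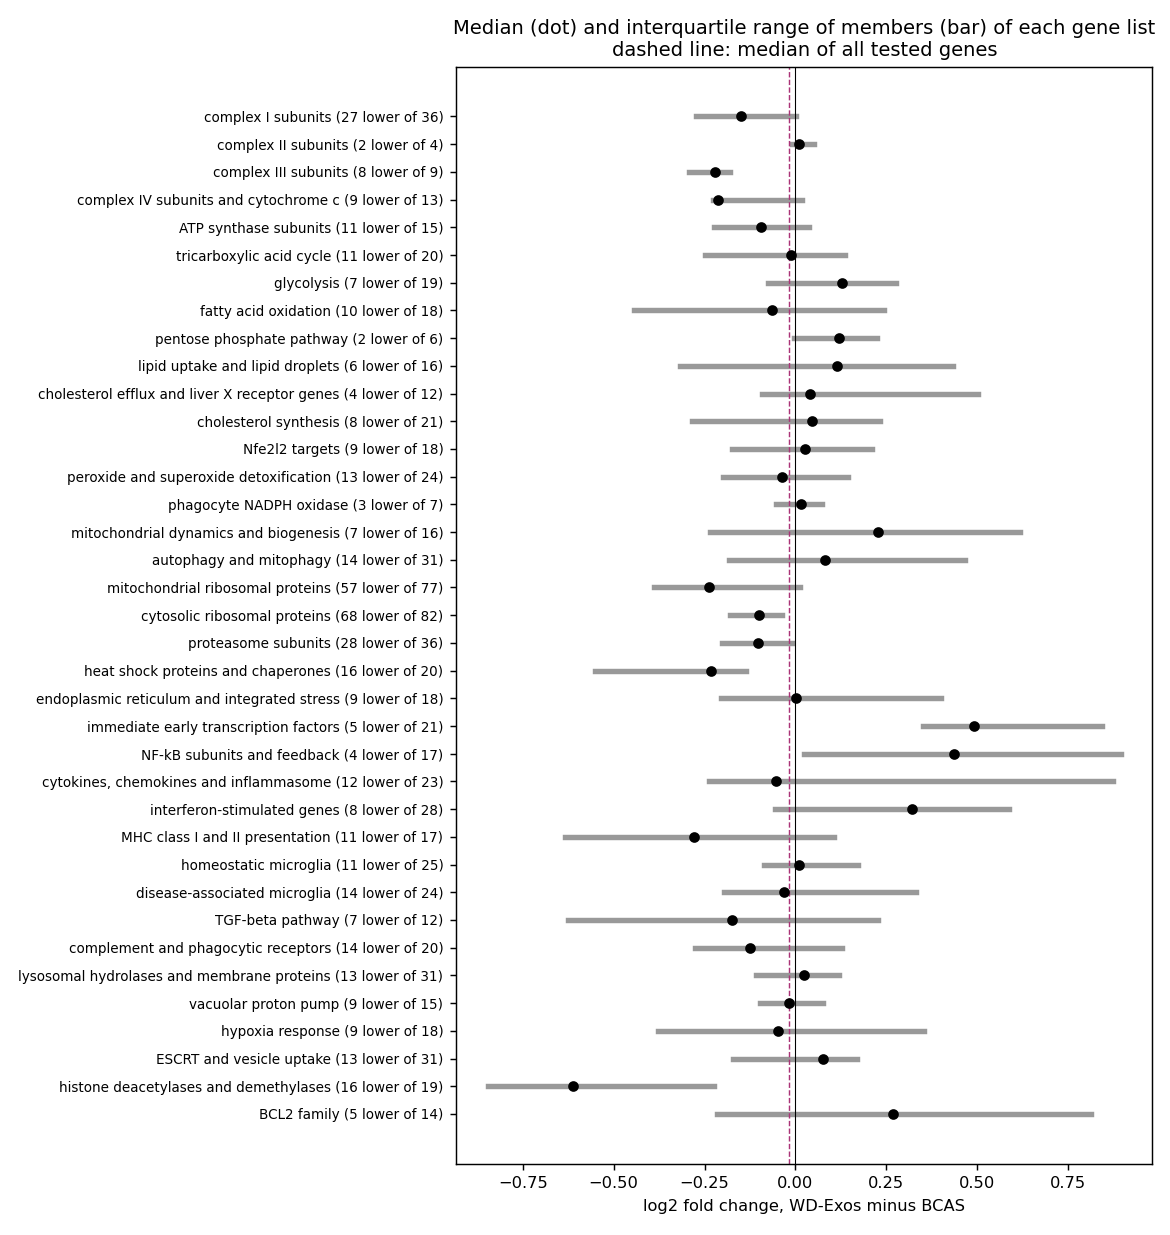
Median log2 fold change (dots) and interquartile range of the members (bars) of the 37 gene lists (y axis, with the number of lower members), WD-Exos over BCAS; the dashed line is the median of all tested genes, -0.016. Furthest left are histone deacetylases and demethylases (-0.61) and MHC presentation (-0.28). The lists of complexes I, III and IV, ribosomal proteins and chaperones also lie to the left (cytosolic ribosomal proteins with BCAS library 2 only). Those of immediate early, NF-kB and interferon-stimulated genes lie furthest right (interferon-stimulated genes with WD-Exos library 6 only).

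Prkcd (Entrez gene 18753), protein kinase C delta, which acts downstream of diacylglycerol and immune receptors, was at 94.5 to 344 CPM with a median of 240.1 in WD-Exos libraries, and 53.3 to 169 CPM with a median of 97.7 in BCAS libraries. WD-Exos libraries 1 to 4 exceeded all BCAS libraries, and the fold was 1.14 ± 0.38 (SE), adjusted p = 0.816. Marcks, an actin-binding substrate of protein kinase C, was lower, at 479.9 to 824 CPM with a median of 546 in WD-Exos libraries, and 564 to 1103 CPM with a median of 816 in BCAS libraries, a fold of -0.47 ± 0.16 (SE), adjusted p = 0.816; it averaged 453 CPM in Sham. Pea15a, an adaptor that holds ERK in the cytoplasm, was at 470.4 to 665 CPM with a median of 564 in WD-Exos libraries, and 152 to 596 CPM with a median of 368 in BCAS libraries. WD-Exos libraries lay close together for this gene, and the fold was 0.63 ± 0.22 (SE), adjusted p = 0.816. Bin1, an adaptor that curves membranes in endocytosis, had a fold of 0.74 ± 0.27 (SE), adjusted p = 0.829. Abi1, of the WAVE complex that drives actin branching, was at 75.5 to 175 CPM with a median of 135 in WD-Exos libraries, and 169 to 237 CPM with a median of 194 in BCAS libraries, a fold of -0.65 ± 0.23 (SE), adjusted p = 0.816.

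Every WD-Exos library lay above every BCAS library for 12 genes, of which 3 cytokine receptors, Tnfrsf1a, Il6ra and Il17ra, are described. They were picked out after their values were seen, and no list of receptors was counted. Tnfrsf1a, the main receptor of tumour necrosis factor, was at 159.5 to 188 CPM with a median of 178 in WD-Exos libraries, and 86.6 to 155 CPM with a median of 126 in BCAS libraries. Il6ra, the interleukin-6 receptor, was at 134 to 250.02 CPM with a median of 160.2 in WD-Exos libraries, and 38.1 to 133 CPM with a median of 111 in BCAS libraries. Il17ra, a receptor chain for interleukin-17, was at 48.3 to 124 CPM with a median of 69.5 in WD-Exos libraries, and 3.94 to 46.6 CPM with a median of 20.4 in BCAS libraries. Tnfrsf1a and Il6ra were the 2 genes of at least 50 CPM (0.0748%) so separated. The gap between the groups was narrow for Il6ra and Il17ra, and the interval of the Tnfrsf1a fold was -0.032 to 1.09. The folds of Tnfrsf1a and Il6ra were 0.53 ± 0.27 (SE) and 0.81 ± 0.36 (SE), and that of Il17ra was 1.62 ± 0.58 (SE), with adjusted p-values of 1.0, 1.0 and 0.816. Sham means were 146 CPM for Tnfrsf1a, 99.3 CPM for Il6ra and 53.5 CPM for Il17ra. The 23 tested cytokines, chemokines and inflammasome genes had 11 higher and 12 lower, with a median of -0.054, which was 0.36 without BCAS library 2.

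Immediate early transcription factors, which cells switch on quickly after a stimulus, had 16 of 21 members higher (76.2%), with a median of 0.49. This was uneven between libraries of the same group, as the plot of activation genes shows. The mean log2(CPM + 1) of the list was 8.25, 7.26 and 6.99 in WD-Exos libraries 2, 3 and 1, and 7.89 and 6.33 in BCAS libraries 2 and 1. The other 7 libraries lay between 3.33 and 5.54. The median fold ran from 0.18 without WD-Exos library 2 to 1.80 without BCAS library 2. Jun was at 45.1 to 2699 CPM with a median of 295 in WD-Exos libraries, and 38 to 413 CPM with a median of 184 in BCAS libraries, and without WD-Exos library 2 its fold of 1.89 was 0.68. Without WD-Exos library 2, 11 of the 21 list members were higher, and without BCAS library 2, 20 of 21.

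NF-kB subunits and feedback genes had 13 of 17 higher (76.5%), with a median of 0.44 that ran from 0.056 without WD-Exos library 2 to 0.79 without BCAS library 1; 10 of 17 were higher without WD-Exos library 2. Socs3, which blocks cytokine signalling, was at 0.269 to 472 CPM with a median of 85 in WD-Exos libraries, and 0.0356 to 79 CPM with a median of 23 in BCAS libraries. Tbk1, the kinase that activates interferon regulatory factors, was at 37.1 to 95.1 CPM with a median of 59.7 in WD-Exos libraries, and 18.5 to 52.5 CPM with a median of 24.7 in BCAS libraries, a fold of 1.03 ± 0.34 (SE), adjusted p = 0.816. Tbk1 averaged 71.2 CPM with ND-Exos and 62.9 CPM in Sham, beside 62.9 CPM with WD-Exos. Traf3, an adaptor of the same pathway, was at 0 to 1.71 CPM with a median of 0.19 in WD-Exos libraries, and 0.0416 to 74.7 CPM with a median of 18.7 in BCAS libraries; it was nearly absent from all WD-Exos libraries and from BCAS libraries 1 and 4. Of 28 interferon-stimulated genes 20 (71.4%) were higher with a median of 0.32, and without WD-Exos library 6 it was 11 of 28 with a median of -0.13. Usp18, which restrains interferon signalling, was at 10.9 to 117 CPM with a median of 31.2 in WD-Exos libraries, and 0 to 15.6 CPM with a median of 0.0895 in BCAS libraries, with its highest value in that library. Antigen presentation by MHC class I and II had 11 of 17 lower with a median of -0.28, and -0.012 without BCAS library 5. MHC genes are near-identical to one another in parts, so reads may be shared between them.

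**Figure D5:**
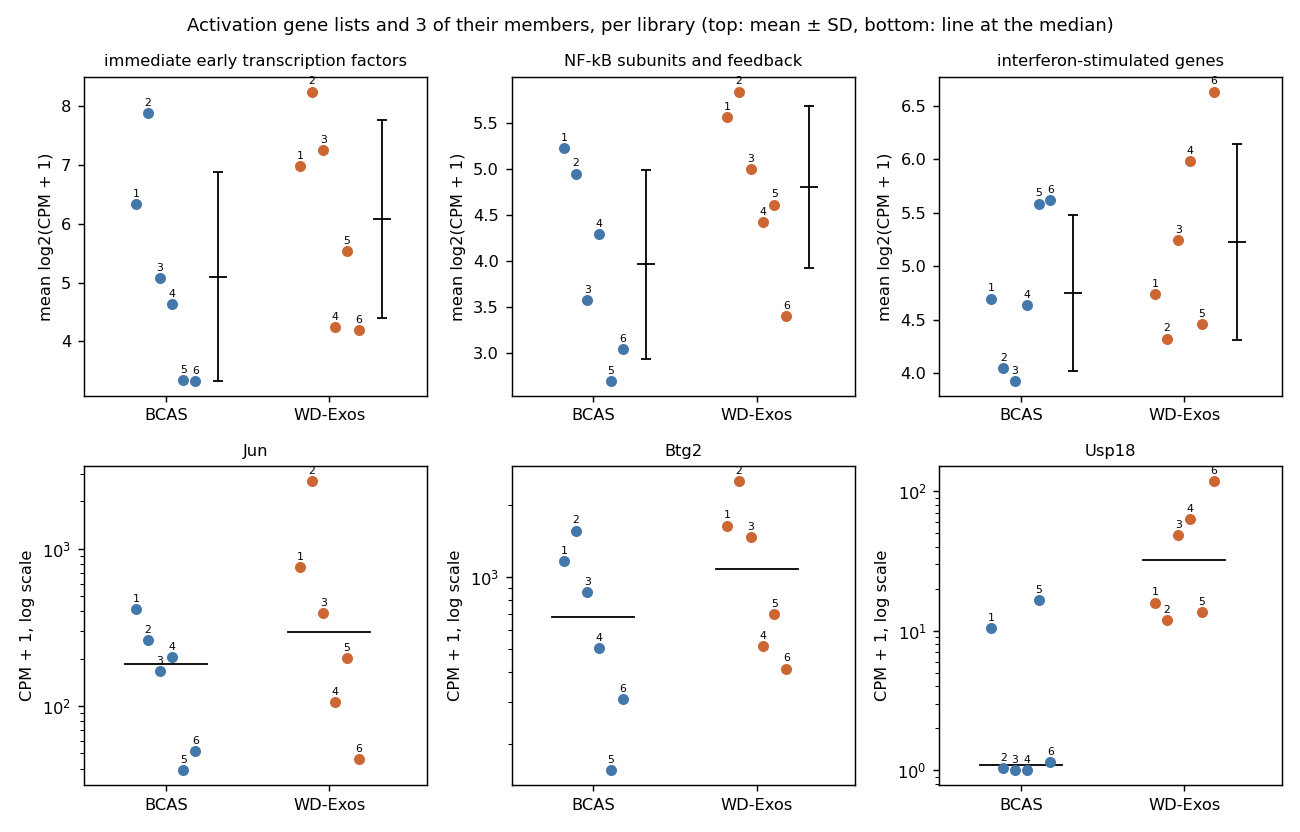
Top: mean log2(CPM + 1) of 3 activation gene lists in each library, with mean ± SD of 6. Bottom: CPM plus 1 of Jun, Btg2 and Usp18 (log scale), with a line at each median; numbers are replicates. WD-Exos libraries 1 to 3 and BCAS libraries 1 and 2 are high for immediate early genes, and WD-Exos library 6 is highest for interferon-stimulated genes.

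Genes that define microglia did not separate the groups, and the intervals given here all included 0. Cx3cr1, the fractalkine receptor, was at 3794 to 6048 CPM with a median of 4712 in WD-Exos libraries, and 3912 to 6538 CPM with a median of 4606 in BCAS libraries, and the interval of its fold was -0.29 to 0.31. Trem2, a lipid-sensing receptor, had an interval of -0.29 to 0.23. P2ry12, the purine receptor that guides processes to injury, had one of -0.55 to 0.22, Csf1r one of -0.30 to 0.68 and Tmem119 one of -0.21 to 0.76. Without BCAS library 2 the Csf1r fold of 0.19 was 0.011 and the Tmem119 fold of 0.28 was 0.11. Apoe, which carries lipids and is high in disease-associated microglia, was at 3137 to 5085 CPM with a median of 3981 in WD-Exos libraries, and 1582 to 7594 CPM with a median of 3290.2 in BCAS libraries, with a wider interval of -0.52 to 0.71. Of 25 homeostatic genes 14 were higher and 11 lower with a median of 0.011. Of 24 disease-associated genes 10 were higher and 14 lower with a median of -0.030. Axl, a receptor for dying cells, had a fold of 0.91 ± 0.54 (SE), and Olfml3, a secreted microglial protein, 0.30 ± 0.16 (SE). In the TGF-beta pathway, which maintains microglial identity, 5 of 12 were higher. Smad3, its transcription factor, was at 46.7 to 98 CPM with a median of 62.8 in WD-Exos libraries, and 0 to 56.9 CPM with a median of 17 in BCAS libraries, and Skil, which represses it, was at 115 to 233 CPM with a median of 165 in WD-Exos libraries, and 158 to 436 CPM with a median of 208 in BCAS libraries. The folds were 1.67 for Smad3, -0.51 ± 0.24 (SE) for Skil and -0.85 for Itgav, also of this list. Without BCAS library 2 the fold of Skil was -0.25. Skil was the only 1 of the 12 (8.33%) with an unadjusted p under 0.05, against 3.71% of all tested genes.

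Commd10 (Entrez gene 69456), of a family that acts in endosomal recycling, had the smallest unadjusted p of the genes of at least 50 CPM, 0.00126. Its level was 50.9 to 99.5 CPM with a median of 68.2 in WD-Exos libraries, and 93.6 to 179 CPM with a median of 125 in BCAS libraries. Only WD-Exos library 4 exceeded the lowest BCAS library, and the fold was -0.90 ± 0.25 (SE), adjusted p = 0.816. DESeq2 gave -0.89 with an adjusted p of 0.0218. Hdlbp, an RNA-binding protein of the ER, was at 78.6 to 167 CPM with a median of 109 in WD-Exos libraries, and 81.8 to 300.3 CPM with a median of 197 in BCAS libraries, a fold of -0.85 ± 0.27 (SE), adjusted p = 0.816. Zfhx3, a homeobox transcription factor, had a fold of -0.59 ± 0.21 (SE) and Fam102b one of -0.75 ± 0.27 (SE). Dnajc5, a co-chaperone of secretory vesicles, had a fold of 1.39 ± 0.47 (SE).

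Among genes with a mean of 10 to under 50 CPM 3 of the 10 leading members, Pan2, Sh3bp2 and Traf3, were under 1 CPM in some libraries. Pan2, the catalytic subunit of a poly(A) nuclease, was at 9.8 to 36.7 CPM with a median of 20.8 in WD-Exos libraries, and 0 to 0.374 CPM with a median of 0 in BCAS libraries. Only BCAS library 4 had any count, 9 counts in the whole group, and Pan2 averaged 8.54 CPM in Sham and 6.78 CPM with ND-Exos. Sh3bp2, an adaptor of immune receptor signalling, was at 11.1 to 63.8 CPM with a median of 48.3 in WD-Exos libraries, and 0.0433 to 10.9 CPM with a median of 2.96 in BCAS libraries, again with no overlap. It averaged 37.4 CPM with ND-Exos and 30.6 CPM in Sham, beside 41.9 CPM with WD-Exos. Sall3, a zinc finger transcription factor, had a fold of 2.16 ± 0.63 (SE), and Mafg, a small partner of Nfe2l2, one of 2.02 ± 0.61 (SE). Spire1, an actin nucleator, lay below all BCAS libraries in every WD-Exos library, at 5.92 to 39 CPM with a median of 16.9 in WD-Exos libraries, and 41.6 to 88.8 CPM with a median of 54.5 in BCAS libraries, a fold of -1.69 ± 0.48 (SE), adjusted p = 0.816. Kmt2c, a histone H3 methyltransferase, had a fold of -1.09 ± 0.36 (SE), Hltf, a helicase, -1.04 ± 0.35 (SE), and Pcmtd1 -1.55 ± 0.56 (SE). ND-Exos means were 58.7 CPM for Sall3 and 61.9 CPM for Mafg, beside WD-Exos means of 53.6 and 48.7 CPM.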

How the data were processed

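Microglia were sorted from mouse brain by FACS and their total RNA was amplified as complementary DNA by Smart-seq2, per the labels' protocols. The deposited table holds the authors' estimated counts per Entrez gene, 76.8% of genes being whole in every library; which aligner, counter and build they used is not given in the sources used here. Of 22064 identifiers 6186 were blank and left out. Symbols for 22002 came from the RefSeq table of GRCm38.p6, and promoter windows from RefSeq of the same assembly, used by symbol only. Smart-seq2 reads carry no molecular identifiers here, so counts are not counts of molecules.

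Estimated counts were rounded, filtered with filterByExpr (minimum 10 counts), scaled by TMM and fitted over all 24 libraries with 4 group means in edgeR 4.0.16 (R 4.3.3; robust quasi-likelihood F test, Benjamini-Hochberg adjustment over all tested genes, threshold 0.05). SE and 95% intervals are from that fit. Genes named were the 10 higher and 10 lower of at least 50 CPM and the 5 and 5 of 10 to under 50 CPM with the smallest p, the 3 members of each list with the smallest p, and 10 set genes; others are said to be chosen after seeing values, and some genes the rule names are not reported here. Of 2 library measures tested, p-values were adjusted together. The score of a list is the mean log2(CPM + 1). Members and lists were chosen with earlier results of these data known, so no list was tested as a set. limma 3.58.1, DESeq2 1.42.0 and other settings were alternatives. The scripts were tested on simulated data. Figures used matplotlib 3.10.9.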

Additional observations from a re-analysis of the deposited data

Results flagged for a closer look

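For 7 of 80 gene and group combinations examined, 1 library lay far from the other 5 of its group on the log2(CPM + 1) scale; about 1 in 20 groups does so by chance. In BCAS library 2 Tmem119 was lowest at 625 CPM and Csf1r at 3286 CPM. In WD-Exos library 2 Hmox1 was highest at 96.1 CPM and Traf3 at 1.71 CPM. Naxd was highest in WD-Exos library 6 at 167 CPM, Mafg lowest in WD-Exos library 5 at 8.51 CPM, and Pan2 highest in BCAS library 4 at 0.374 CPM. Lgals3bp, a secreted glycoprotein induced by interferon, differed between the exosome groups: the log2 fold change of WD-Exos over ND-Exos was 2.18 ± 0.30 (SE; edgeR, adjusted p = 0.000522, 1 of 2 genes past 0.05 among 10219, 0.0196%), while that of WD-Exos over BCAS was 0.40 ± 0.29 (SE) (adjusted p = 1.0). The other gene past it, Gm20594, a predicted gene, had a log2 fold change of WD-Exos over ND-Exos of -1.21 ± 0.17 (SE; edgeR, adjusted p = 0.000522) and of WD-Exos over BCAS of -0.003 ± 0.17 (SE).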

How the results depend on the processing

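No gene passed with other size factors, no filter, a filter of at least 50 CPM, the 12 libraries alone, detected genes as a covariate, the replicate block, replicate 2 left out of both groups, or any 1 library left out; voom placed 1 gene and DESeq2 120 past it. The replicate block gave 229 genes higher and 140 lower at an unadjusted p under 0.05; same-numbered libraries correlated at 0.0279 to 0.194 and 1 of 6 WD-Exos libraries correlated best with its own number; 3 of the 6 pairs were above 0.1 and the labels give no shared source, so the libraries were not treated as pairs. Unadjusted counts, 221 higher and 158 lower, were 1048 and 656 without a filter, 59 and 60 with the 50 CPM filter, 87 and 83 with the 12 libraries alone, and 456 higher with voom. With 1 library left out they were 238 to 417 higher and 159 to 264 lower, and non-overlapping genes 18 to 34 and 8 to 28, since 5 libraries separate more easily than 6. The 50 CPM filter gave 3 and 1 non-overlapping genes and a median of 0.086 for histone deacetylases and demethylases; the covariate gave 0.17 for homeostatic genes; the causes were not tested. Counts of lower members without replicate 2 or WD-Exos library 6 were added after seeing the data. List medians changed sign in 101 of 703 fits, in 26 of 37 lists, none beyond 0.36 after the change, and named genes in 41 of 2589. Median and mean fold differed in sign for 8 lists: fatty acid oxidation, lipid uptake, peroxide detoxification, NADPH oxidase, cytokines, disease-associated genes, hypoxia and histone deacetylases. Genes with no count in a library limit the resolution below 50 CPM.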

Other observations

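Of 31 ESCRT and vesicle uptake genes, which sort and take in membrane cargo, 18 had a fold above 0 and 13 below, with a median of 0.077. Cd82, a tetraspanin of vesicles, was at 204 to 305 CPM with a median of 240.0 in WD-Exos libraries, and 71.2 to 265 CPM with a median of 188 in BCAS libraries, a fold of 0.57 ± 0.28 (SE), adjusted p = 1.0 in edgeR's quasi-likelihood test. BCAS libraries 2 and 4 were low for it. The 14 BCL2 family genes had 9 higher and 5 lower with a median of 0.27, which was -0.001 without WD-Exos library 3. Bcl2a1a, a survival gene with near-identical paralogs that reads may be shared with, was at 11.3 to 45.3 CPM with a median of 19.3 in WD-Exos libraries, and 33.2 to 47.4 CPM with a median of 42.1 in BCAS libraries, a fold of -0.88 ± 0.45 (SE), and Bcl2l1, another survival gene, had one of 0.62 ± 0.43 (SE).

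The hypoxia response had 9 of 18 genes higher and a median of -0.048. Ndrg1, a hypoxia-induced gene that oligodendrocytes also express, was at 214 CPM in WD-Exos library 6, which had the highest oligodendrocyte marker sum, and at 20.0 CPM or less in the other 11 libraries; the part of oligodendrocyte RNA was not tested. Histone deacetylases and demethylases had 16 of 19 lower with a median of -0.61, but 18 of the 19 averaged under 50 CPM. Hdac6, a cytoplasmic deacetylase, went the other way, at 0.037 to 55 CPM with a median of 7.62 in WD-Exos libraries, and 0 to 0.0373 CPM with a median of 0 in BCAS libraries, and Hdac2 had a fold of -1.72 ± 1.41 (SE). Genes of mitochondrial dynamics and biogenesis had 9 of 16 higher with a median of 0.23; Tfam, which maintains mitochondrial DNA, had a fold of 0.99 ± 0.89 (SE).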
